A study of Homo sapiens with 10 samples.

Results

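The COLO205 list of m6A peaks held 9284 peaks on chromosomes 1 to 22, out of 9998 on all contigs of that list and 38106 in the 5 lists of the series. Each COLO205 peak was sorted by whether it overlapped, by 1 nt or more, a peak of the HCT116, HT29, HCT15 or COLO320DM list. A peak that met none of them was called private, and the others were called shared with 1, 2, or 3 or 4 other lists. COLO205 is a human colon cancer line started from ascites fluid and carries a mutant BRAF, the kinase that passes the signal from RAS to MEK and ERK. The study profiled m6A in this line and in HCT116, HT29, HCT15 and COLO320DM, all cultured untreated in DMEM with fetal bovine serum. For each line, total RNA was fragmented, one portion was enriched with an m6A antibody kit (the IP library) and another was kept as input. There was 1 IP and 1 input library per line, so the lists have no replicates, no test between lines could be made, and every interval below is an exact Clopper-Pearson 95% interval that covers counting error only. Nothing in the labels says whether a line was a single clone or how many cultures were pooled.

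m6A is a methyl group on adenosines inside RNA, placed during transcription by a complex of METTL3 and METTL14 with the partners WTAP, VIRMA, ZC3H13 and RBM15. It is dense in long internal exons, around stop codons and in the following untranslated region. YTH-domain proteins bind it, and in the cytoplasm the YTHDF proteins shorten the life of many marked transcripts. A peak in such a list depends both on the mark and on how much of the transcript is in the RNA, so a peak that is missing from a list says nothing about the level of the gene.

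Depth differed between the lists. For a genome of 2.7 Gb, the mean IP coverage that the deposited values imply corresponded, in M reads (units of 1e+06 reads), to 2.99 M in COLO205, against 1.38 M in HCT116, 2.13 M in HT29 and 1.47 M in COLO320DM. It could not be recovered for HCT15, whose list was the shortest with 852 peaks on these chromosomes. Input depth, also not recovered for HCT15, was put at 5.41 M in COLO205, 2.24 M in HCT116, 3.10 M in HT29 and 2.28 M in COLO320DM. Of 8 colon epithelial markers used to check the label, 6 had usable positions, and COLO205 had a peak in 5 of them (HNF4A, KLF5, EPCAM, CDH1 and GATA6), with none in CDX1. The same count was 3 in HCT116, 3 in HT29, 0 in HCT15 and 0 in COLO320DM.

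Of the 9284 COLO205 peaks, 3136 were private, which is 33.8% of the list (32.8 to 34.8). A further 2489 peaks (26.8%, 25.9 to 27.7) met 1 other list, 1875 (20.2%, 19.4 to 21.03) met 2, and 1784 (19.2%, 18.4 to 20.03) met 3 or 4. In 24 peaks all 4 other lists had a peak. Split in the same way, the private share was 38.5% in HCT116 (37.5 to 39.6), 36.5% in HT29 (35.4 to 37.5) and 47.1% in COLO320DM (46.0 to 48.1), so COLO205 had the lowest private share of the 4 long lists. It was also the deepest of them, and the part of depth in this order was not tested. HCT15, with its short list, had 5.87% private peaks (4.39 to 7.66).

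**Figure D1:**
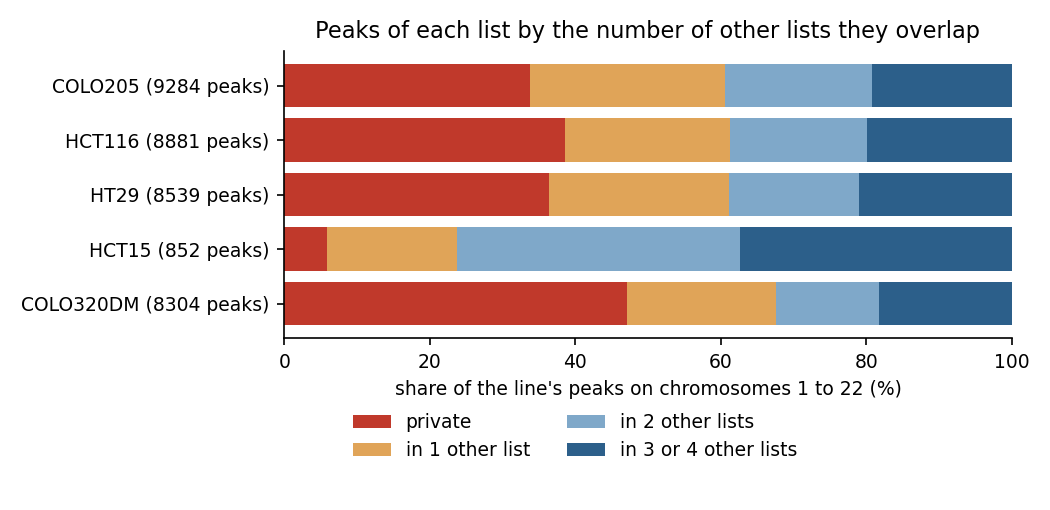
Each bar is 1 line's peak list on chromosomes 1 to 22, split by how many of the other 4 lists a peak overlaps by 1 nt or more, as a percentage of the list. COLO205 has 33.8% private peaks, HCT15 5.87%, and the share in 3 or 4 other lists lies between 18.3% and 21.01% in the 4 long lists.

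The partner that COLO205 peaks met most often was HT29, which also carries a mutant BRAF. HT29 had a peak at 4514 of the COLO205 peaks (48.6%), HCT116 at 3640 (39.2%), COLO320DM at 2812 (30.3%) and HCT15 at 649 (6.99%). Among the peaks with a single partner, 1504 met HT29 alone, 518 met HCT116 alone, 417 met COLO320DM alone and 50 met HCT15 alone. HT29 was also the second deepest of the recovered libraries, and depth and BRAF status cannot be told apart here.

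The peaks shared with HT29 alone had a median of 6 IP reads at the summit, the value of the private peaks, and only 28.5% of them (26.2 to 30.8) stood on a local background of at least 1 input fragment. Peaks shared with HCT116 alone had a median of 11 reads and 63.9% input coverage (59.6 to 68.0), and peaks shared with COLO320DM alone had 10 reads and 61.9% (57.0 to 66.6). The 50 peaks shared with HCT15 alone had a median of 7 reads and 44.0% (30.0 to 58.7). The peaks shared with HT29 alone had a median width of 133.5 nt, against 107 nt with HCT116, 110 nt with COLO320DM and 114.5 nt with HCT15. The commonest combination of several partners was HCT116 with HT29 and COLO320DM, at 1468 peaks with a median of 17 reads and 80.0% input coverage. Where HT29 and HCT15 were both partners and no other list was, 280 peaks had a median of 8 reads.

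Among overlapping peaks, whose overlap itself limits the distance, the median distance between the COLO205 summit and the partner's summit was 15 nt for COLO320DM, 19 nt for HCT116, 28 nt for HT29 and 34 nt for HCT15. The summits lay within 50 nt of each other at 80.0% of the peaks shared with COLO320DM and at 64.0% of those shared with HT29.

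Private COLO205 peaks were shallow and narrow, and reads, width and fold all went up with the number of lists. The median number of IP reads at the summit was 6 in private peaks (quartiles 4 and 10), 7 in peaks with 1 partner (5 and 12), 10 with 2 partners (7 and 17) and 17 with 3 or 4 partners (11 and 27). The median width went from 94 nt (75 and 132) to 122, 144 and 189 nt (135 and 277) over the same 4 groups. The median deposited fold over background was 5.23 in private peaks (4.46 and 6.23), 5.52, 6.23 and then 7.91 (5.85 and 10.7). The groups overlapped widely: the deepest private peak had 133 reads, and the shallowest peak met by 3 or 4 lists had 3.

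The share of peaks on a local background of at least 1 input fragment followed the same order. A background below that can still come from input reads in the wider windows that the caller averages. It was 34.4% in private peaks (32.7 to 36.1), 41.7% with 1 partner (39.8 to 43.7), 60.8% with 2 (58.5 to 63.0) and 75.4% with 3 or 4 (73.3 to 77.4). A background equal to the genome mean, where no local input read raised it, was found at 19.6% of the private peaks and at 4.09% of those in 3 or 4 other lists. The smallest possible width, 75 nt, was found in 936 private peaks (29.8%) and in 34 of the most shared ones (1.91%). Peaks of only 3 to 4 reads made up 27.3% of the private peaks (25.7 to 28.9) and 1.07% of those in 3 or 4 other lists (0.642 to 1.66).

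**Figure D2:**
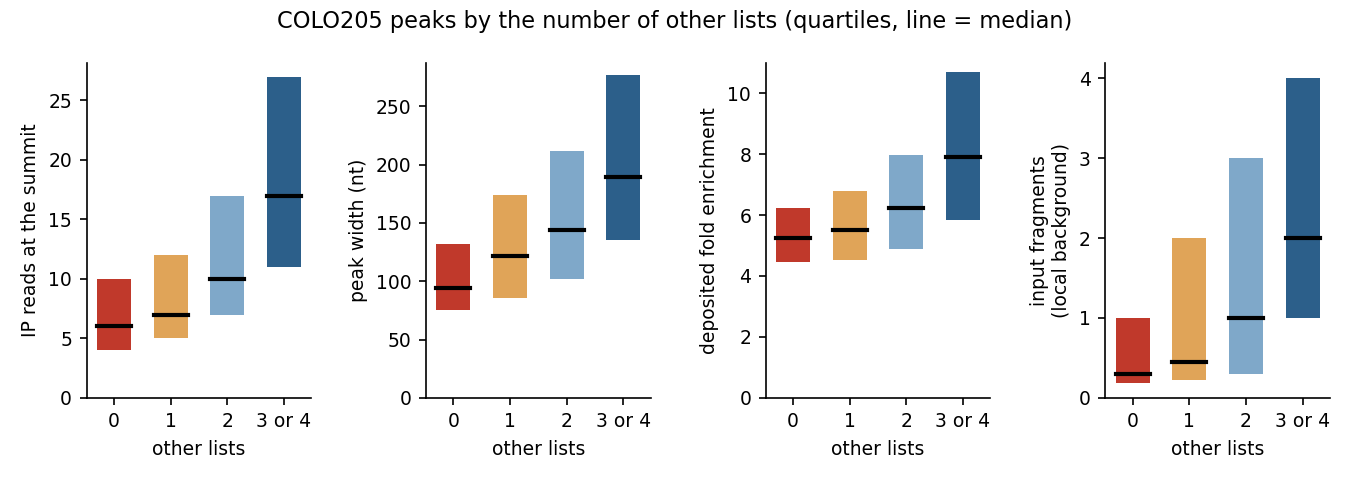
COLO205 peaks by the number of other lists with an overlapping peak (x axis), with IP reads at the summit, peak width in nt, deposited fold and local background in input fragments on the y axes. Bars span the lower to the upper quartile and black lines are medians, which go from 6 to 17 reads and from 94 to 189 nt.

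Read depth and width each moved with the private share. Among peaks of 3 to 4 reads, 64.8% were private (62.1 to 67.3), against 38.1% at 5 to 9 reads (36.6 to 39.7), 22.4% at 10 to 19 reads (20.8 to 24.2) and 15.5% at 20 to 39 reads (13.5 to 17.6). At 40 reads or more the share was 17.4% (14.1 to 21.1), whose interval overlaps that of the bin before. By width, 53.1% of peaks of 75 to 99 nt were private and 7.58% of those of 300 nt or more (5.86 to 9.61). A wider peak can meet another list more easily, and within the bin of 10 to 19 reads the private share was still 24.6% at widths from 100 to under 150 nt (21.5 to 27.9) and 11.05% from 200 to under 300 nt (8.01 to 14.7). A private peak with the median of 6 reads, scaled to the IP depth of the other lines, would hold 2.77 reads in HCT116, 2.96 in COLO320DM and 4.27 in HT29. The lowest reads of any called peak there were 2, 2 and 3, and the median reads were 11, 12 and 8. The lowest value is an extreme and not a calling threshold, and whether such a peak could be called in those lines was not tested.

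**Figure D3:**
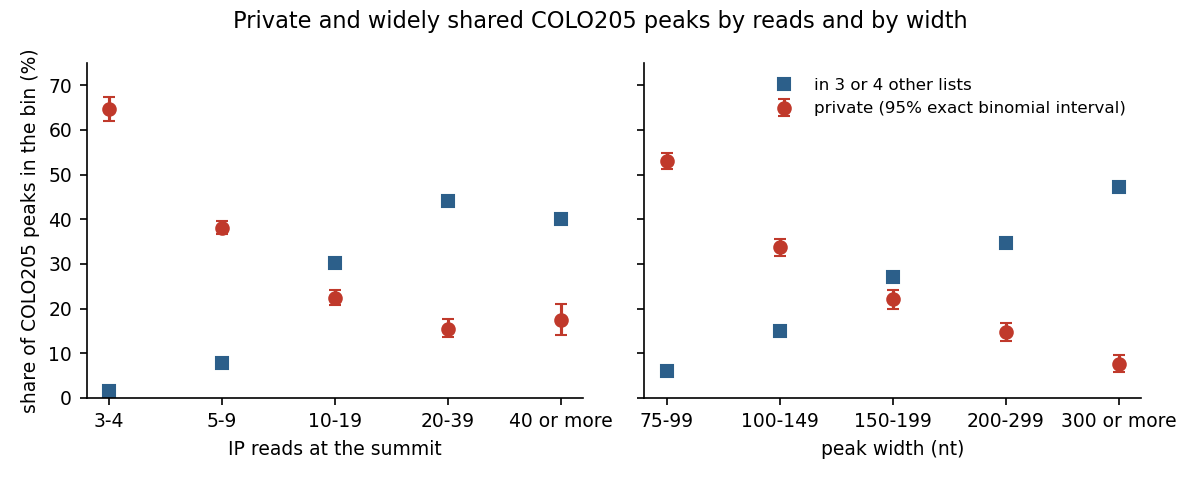
Share of COLO205 peaks that are private (circles, with exact 95% binomial intervals) or found in 3 or 4 other lists (squares), by IP reads at the summit and by peak width in nt. The private share goes from 64.8% at 3 to 4 reads to 15.5% at 20 to 39 reads, and from 53.1% to 7.58% over the width bins.

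Of the 483 COLO205 peaks with 40 reads or more, 84 were private. Of these, 81 stood on a background of 10 or more input fragments (96.4%, 89.9 to 99.3), against 291 of the 399 shared peaks of that depth (72.9%, 68.3 to 77.2). Within 1 Mb of a centromeric gap of the assembly lay 44 of the 84 (52.4%, 41.2 to 63.4) and 164 of the 399 (41.1%, 36.2 to 46.1). Among the peaks of this depth with fewer than 10 input fragments, 3 of 111 were private (2.70%, 0.561 to 7.70) and 78.4% were in 3 or 4 other lists. Those 3, named after their values were seen, were a peak in STYXL2, a peak in CHST11 and chr16:46400032-46400123, beside the centromeric gap.

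By position, private peaks were spread along the chromosomes. The median distance from a private peak to the nearest peak of any other list was 13.7 kb (quartiles 0.407 and 83.9 kb). Another list had a peak within 200 nt of 545 private peaks (17.4%), within 1 kb of 1008 (32.1%) and within 100 kb of 2428 (77.4%). The 708 private peaks farther than 100 kb from any other list had a median of 5 reads, and 20.3% of them stood on at least 1 input fragment. Private peaks within 1 kb of another list had a median of 6 reads, and 38.3% of them stood on at least 1.

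The private share was lowest at an intermediate distance from the chromosome ends. It was 34.5% within 1 Mb of an end (30.3 to 38.8), 28.0% between 1 and 5 Mb from an end (25.9 to 30.3) and 34.5% in the remainder outside the pericentromeric zone (33.3 to 35.8). Within 1 Mb of a centromeric gap it was 38.3% (34.4 to 42.3), and peaks there had a median of 28 reads on 9.97 input fragments. That zone held 7.24% of the private peaks (6.36 to 8.20), 6.67% of those in 1 other list (5.72 to 7.72) and 7.04% of those in 2 (5.92 to 8.29). Only the peaks in 3 or 4 other lists were lower, at 3.81% (2.97 to 4.81).

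The 5 densest windows of 1 Mb held 151 private peaks, 4.82% of them. Of these windows, 3 lay beside centromeric gaps: positions 49000001 to 50000000 of chromosome 4 held 42 private peaks of 152, 42000001 to 43000000 of chromosome 10 held 37 of 102, and 46000001 to 47000000 of chromosome 16 held 32 of 43. The median local background in these windows was 23, 20 and 9.72 input fragments. The other 2 windows were 1000001 to 2000000 of chromosome 11, with 21 private peaks of 49, and 197000001 to 198000000 of chromosome 3, with 19 of 25, and both had a median background of 1 fragment. The chromosome 4 window was also the densest in peaks shared with 3 or 4 lists, with 28. It was followed by 10000001 to 11000000 of chromosome 21 with 18, and by 30000001 to 31000000 and 89000001 to 90000000 of chromosome 16 with 13 each. The next 3 windows tied at 11 each, 88000001 to 89000000 of chromosome 16, 143000001 to 144000000 of chromosome 8 and 80000001 to 81000000 of chromosome 17. The chromosome 16 window with 32 private peaks had none.

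Chromosome 13 stood apart. Of its 362 COLO205 peaks, 210 were private, 58.0% (52.7 to 63.1), while the share on the other 21 chromosomes ran from 26.4% on chromosome 17 to 40.9% on chromosome 3. With chromosome 13 left out, the private share of the list was 32.8% (31.8 to 33.8). The chromosome made up 3.90% of the COLO205 peaks (3.51 to 4.31), against 1.50% in HCT116 (1.26 to 1.77), 2.26% in HT29 (1.96 to 2.60), 0.822% in HCT15 (0.331 to 1.69) and 2.67% in COLO320DM (2.34 to 3.04). COLO205 had 362 peaks there and the others 133, 193, 7 and 222.

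**Figure D4:**
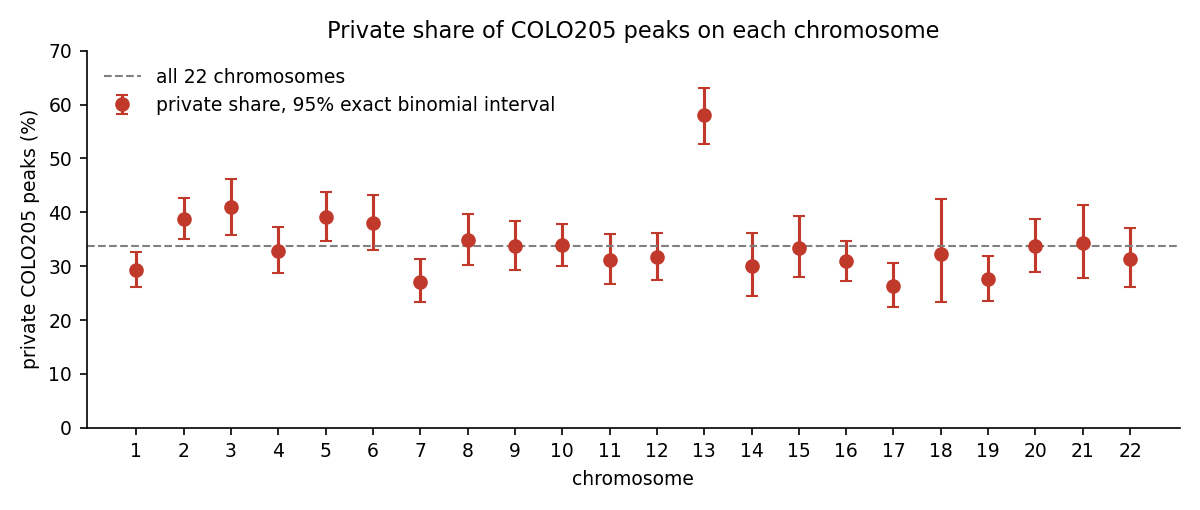
Private share of COLO205 peaks on each of the 22 chromosomes (circles, with exact 95% binomial intervals), with the share over all of them as a dashed line at 33.8%. Chromosome 13 is at 58.0%, and the others lie between 26.4% and 40.9%.

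The private peaks of chromosome 13 had a median of 5 reads, and 23.3% of them stood on a background of at least 1 input fragment, against 35.2% of the private peaks of the other chromosomes. The share at the genome mean, where local input reads did not raise the background, went the other way, at 9.05% and 20.3%. The median background was 0.300 fragments in both. Within the peaks of chromosome 13 on a background under 1 input fragment, 74.5% were private (68.2 to 80.2), against 42.5% elsewhere (41.0 to 43.9). On 1 fragment or more the shares were 33.6% (26.0 to 41.8) and 23.1% (21.9 to 24.4), and among peaks of 10 or more reads they were 31.1% (23.3 to 39.7) and 19.4% (18.2 to 20.6). The gap between chromosome 13 and the rest was therefore present in each of these subsets.

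Of the 17 windows of 5 Mb on chromosome 13 with at least 5 COLO205 peaks, 13 had more private than shared peaks. The windows with the most peaks were not among them: 20 to 25 Mb had 14 private of 39, and 110 to 115 Mb had 23 of 58. Between 55 and 95 Mb, a gene-poor stretch, COLO205 had 60 peaks, of which 51 were private (85.0%, 73.4 to 92.9), with a median of 5 reads over the 60. The bounds of this stretch were not planned in advance, and the interval does not cover their choice. HCT116 had 12 peaks in the same stretch, HT29 11, HCT15 0 and COLO320DM 37. COLO320DM also had a high private share on chromosome 13, 56.3% (49.5 to 62.9) against 46.8% on its other chromosomes (45.7 to 47.9). In HCT116 the share was 32.3% (24.5 to 41.0) against 38.6% on its other chromosomes, and in HT29 32.6% (26.1 to 39.7) against 36.5%, and both intervals contain the second value.

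The private peak with the smallest p-value lay in GADD45G, a stress-induced gene whose protein acts upstream of p38 and JNK signalling. At chr9:92221043-92221392 of hg19, 350 nt wide, it had 34 IP reads on 2.02 input fragments, a fold of 16.5 and a −log10 p of 38.8, and the nearest peak of another list was 65.1 kb away. All folds and p-values of peaks here are the authors' deposited values. Genes were given to these leading peaks after their positions were seen.

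A peak in STYXL2, a gene for a catalytically inactive phosphatase-like protein, at chr1:167096838-167097054 had 46 reads on 6.75 fragments and a fold of 9.94. A second private peak in the same gene, chr1:167095166-167095925, was 760 nt wide, the second widest of all private peaks, with 48 reads on 15 fragments and a fold of 5.28. No other list had a peak within 69.1 kb of it, so among the 5 lists only COLO205 had peaks in that stretch.

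In CHST11, which encodes a chondroitin sulfotransferase, the private peak chr12:104850817-104851046 near the 5′ end of the gene had 43 reads on 6 fragments and a fold of 10.2. HNRNPM, for a protein that binds pre-mRNA and controls splicing, had a peak near its 5′ end at chr19:8509866-8509970, with 24 reads and a fold of 16.1. The peak in SH3BP4, which encodes an adaptor of receptor endocytosis, was at chr2:235961191-235961291 with 22 reads and a fold of 14.8, and another list had a peak 2.76 kb away.

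Of the 10 strongest private peaks, 5 were given no gene. This does not place them outside genes, because no hg19 annotation was given and some gene spans were left unused. The 2 with the highest folds of all private peaks were chr7:95168971-95169089, with 21 reads, 0.450 input fragments and a fold of 17.6, and chr16:86689118-86689246, with 19 reads, 0.255 fragments and a fold of 17.5. The other lists had nothing within 249 kb of the first and 63.8 kb of the second. At chr4:23797228-23797345, a private peak with 25 reads and a fold of 16.5 lay 18.2 kb from chr4:23815523-23815676, which COLO320DM alone shared and which had 36 reads in COLO205 and 20 in COLO320DM.

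Both other peaks without a gene were near chromosome ends. The peak chr10:134261811-134261942 had 28 reads, 2.17 input fragments and a fold of 13.2. The peak chr1:569753-569964 was the one with the most reads among the 10, with 122 IP reads on 65 input fragments and a fold of 3.33, and another list had a peak 0.333 kb away. That stretch of chromosome 1 is known to hold a copy of mitochondrial sequence.

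The widest private peak was chr13:110035529-110036320, 792 nt wide, with 16 reads on 0.375 fragments and a fold of 14.1. The third widest, at chr6:39812638-39813369 in DAAM2, a formin-family gene of Wnt signalling, was 732 nt wide with 21 reads and a fold of 8.28.

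The 5 strongest peaks in 3 or 4 other lists by p-value had 56 to 92 reads, and the 10 strongest private ones 19 to 122. Reads are given as counted in each library, and for the same share of the library a COLO205 count corresponds to 0.462 times as many reads in HCT116, 0.711 times in HT29 and 0.493 times in COLO320DM. The smallest p-value of the COLO205 list belonged to chr5:65466411-65466750 in SREK1, a gene for a regulator of splicing. It had 92 reads in COLO205, 97 in HCT116, 75 in HT29 and 76 in COLO320DM, and its fold was 24.7 in COLO205 and 9.57, 9.68 and 11.3 in the others. At the depth of the others, 92 COLO205 reads correspond to 42.5 in HCT116, 65.5 in HT29 and 45.4 in COLO320DM, all below the reads found. The local background was 5 input fragments in COLO205 and 15, 10 and 9 in the others. A fold depends on this background as well as on the IP reads.

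The highest fold of the list, 37.1, was at chr15:65243399-65247417 in ANKDD1A, also the widest COLO205 peak at 4019 nt. The reads in COLO205 were 56 and in HT29 64, with folds of 37.1 and 35.7, while HCT116 had 32 reads and COLO320DM 30, with folds of 14.1 and 15.9. At the depth of the other libraries, the 56 COLO205 reads correspond to 25.9 in HCT116, 39.8 in HT29 and 27.6 in COLO320DM, all below the reads found there.

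JAG1, a ligand of Notch receptors, had 1 COLO205 peak, at chr20:10620122-10620419. Its reads were 45 in COLO205, 55 in HCT116, 39 in HT29 and 37 in COLO320DM, and its folds were 28.4, 13.7, 9.03 and 12.9. The local background, in the same order, was 1.12, 5, 5 and 3 input fragments. As in SREK1, COLO205 was highest in fold but not in reads.

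DIDO1, which encodes a chromatin-binding protein, was the strongest of the peaks with all 4 partners, at chr20:61510549-61511188. The reads were 86 in COLO205, 92 in HCT116, 83 in HT29 and 84 in COLO320DM, and the fold was 16.1 in COLO205, 11.1 in HCT116, 8.48 in HT29, 7.98 in HCT15 and 11.4 in COLO320DM. PRRC2C, for a protein of stress granules, had a peak at chr1:171501574-171502079 with 72 reads and a fold of 22.8 in COLO205, against 81, 66 and 70 reads and folds of 5.41, 4.17 and 5.34 in HCT116, HT29 and COLO320DM. Its local background was 4 input fragments in COLO205 and 23, 22 and 19 in those 3 lines.

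JPH1, which encodes a protein of membrane junctions, had a peak at chr8:75227081-75227323 with 31 reads and a fold of 28.5 in COLO205, 26 and 7.80 in HCT116, 23 and 14.8 in HT29, and 9 and 8.09 in COLO320DM. In this group, 3 further peaks had no gene assigned, namely chr6:64423123-64423626 (72 reads, fold 22.8), chr5:97912939-97913053 (38 reads, fold 31.2) and chr3:187552496-187552642 (32 reads, fold 28.3). At the last of these COLO320DM had more than COLO205, with 42 reads and a fold of 32.3, and HCT116 and HT29 had 16 and 18 reads.

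Among the peaks with a single partner, the strongest was shared with HT29 and lay near the 5′ end of PPP1R1B, which encodes the phosphatase inhibitor DARPP-32. At chr17:37783210-37783453 it had 82 reads and a fold of 9.51 in COLO205, against 14 reads and a fold of 4.01 in HT29. ADGRA1, an adhesion G protein-coupled receptor gene, had a peak shared with HT29 alone at chr10:134925276-134925531, with 41 reads in COLO205 and 16 in HT29. The third HT29 pair, chr10:42392657-42392762, was in the pericentromeric window, with 117 and 80 reads on 45 and 27 input fragments.

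With HCT116 as the only partner, the strongest peak was chr9:139440310-139440486, just beyond the 5′ end of NOTCH1, with 32 reads in both lines and folds of 22.05 in COLO205 and 7.03 in HCT116. SRSF8, a splicing factor gene, followed at chr11:94801200-94801330 with 30 and 20 reads, and XYLT1, for an enzyme that starts glycosaminoglycan chains, at chr16:17353068-17353372 with 38 and 19 reads. The strongest peaks shared with COLO320DM alone had 36 reads in COLO205 and 20 in COLO320DM at the chromosome 4 peak above, 33 and 8 at chr3:195345786-195346084, and 13 and 17 at chr17:20308842-20308994. Of the 3 strongest shared with HCT15 alone, chr4:49640075-49640160 and chr10:39111973-39112065 were pericentromeric with 50 and 42 reads, and chr16:6422788-6423037 had 10.

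Known genes were read from 8 lists, chosen with earlier results of these data known. Positions could be used for 133 of 157 genes. COLO205 had 216 peaks in 83 of the 133, of which 29 were private (13.4%, 9.18 to 18.7) and 73 were in 3 or 4 other lists (33.8%, 27.5 to 40.5). Over all COLO205 peaks, 33.8% were private and 19.2% were in 3 or 4 lists. The peaks in the listed genes were deeper, with a median of 17 reads against 8. At equal reads, 23.5% of the listed-gene peaks at 5 to 9 reads were private (10.7 to 41.2) and 38.3% of the peaks elsewhere (36.7 to 39.8). The shares were 14.5% (7.70 to 23.9) and 22.7% (21.03 to 24.5) at 10 to 19 reads, and 8.86% (3.64 to 17.4) and 15.9% (13.9 to 18.2) at 20 to 39. At 40 or more, 0 of 17 listed-gene peaks were private, which allows up to 19.5%, against 18.03% elsewhere (14.6 to 21.8). The listed genes were lower in these 4 bins, and each pair of intervals overlapped. In the remaining bin, 3 to 4 reads, they were not lower, with 2 of 3 private (66.7%, 9.43 to 99.2) against 64.7% elsewhere (62.1 to 67.3). A peak counts for a gene when it overlaps the gene's span, without regard to strand or exons. Reads of the lines at these genes are as counted in libraries of unequal depth, COLO205 being the deepest, and are scaled only where stated. Higher reads in COLO205 therefore need not be a larger share of its library.

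The position along these genes was compared in the last part of the span only. The last 10% of the span, where the stop codon and the 3′ untranslated region of most genes are, held 10 of the 29 private peaks (34.5%, 17.9 to 54.3) and 61 of the 187 shared ones (32.6%, 26.0 to 39.8). The private interval is wide, and a difference between the groups was not tested.

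**Figure D5:**
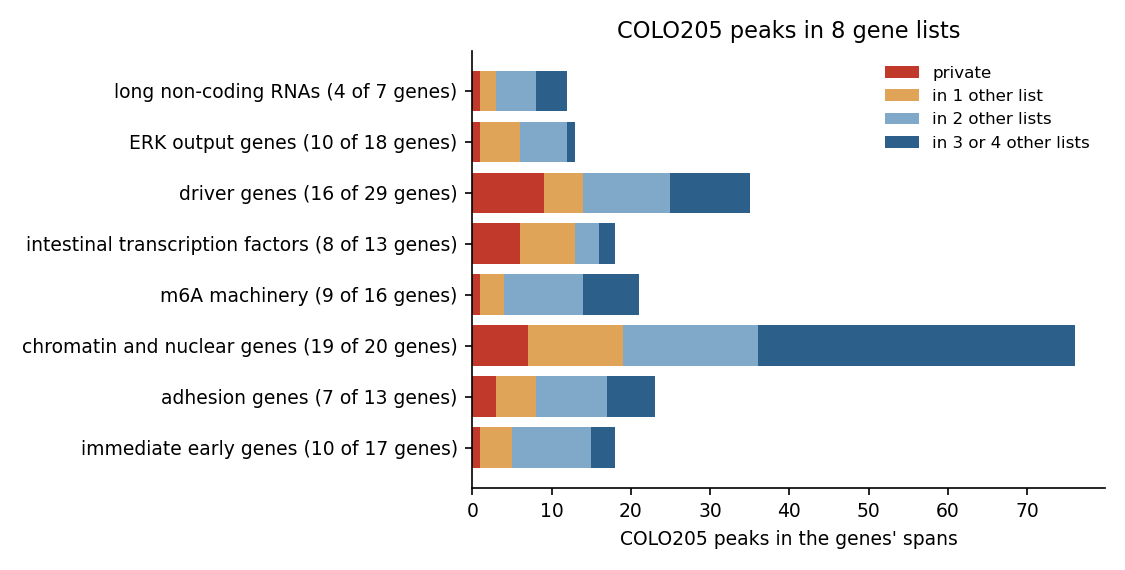
Number of COLO205 peaks in the genes of each of 8 lists (bars), coloured by how many other lists have an overlapping peak, with the number of genes that had a COLO205 peak out of those with usable positions beside each name. Chromatin and nuclear genes have 40 of 76 peaks in 3 or 4 other lists, and intestinal transcription factors 2 of 18. Over all COLO205 peaks the share in 3 or 4 other lists is 19.2%.

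The m6A machinery had 21 COLO205 peaks in 9 of 16 genes, 1 of them private and 7 in 3 or 4 lists. The writer subunit ZC3H13, on chromosome 13, had 8 peaks, none of which was private. Its strongest, chr13:46559528-46559912, had 53 reads in COLO205, 39 in HCT116, 27 in HT29 and 55 in COLO320DM, with folds of 14.4, 7.53, 6.32 and 11.5. VIRMA, a scaffold of the complex, had 1 peak, with 23 reads in COLO205, 21 in HCT116 and 19 in HT29. RBM15, which guides the complex to RNA, had 3.

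Among the readers, YTHDF2 had 1 peak at chr1:29070025-29070445, with 35 reads in COLO205, 35 in HCT116, 28 in HT29 and 31 in COLO320DM. The 35 COLO205 reads correspond to 16.2 in HCT116, 24.9 in HT29 and 17.3 in COLO320DM at their depth, while the folds were 22.8, 5.50, 7.75 and 5.18. The COLO205 fold stood on a local background of 1.05 input fragments. YTHDF3 had 2 peaks, one shared with HT29 alone and one with COLO320DM alone. The nuclear reader YTHDC1 had the only private peak of the list, chr4:69179830-69179953 with 10 reads and a fold of 3.43, and a stronger peak shared with HCT116 and COLO320DM at a fold of 13.6. No COLO205 peak was called in METTL3, ALKBH5, FTO or IGF2BP3, of which IGF2BP3 had peaks in all 3 other long lists.

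Chromatin regulators and other nuclear proteins with long exons held the most peaks of the 8 lists. COLO205 had 76 peaks in 19 of 20 genes, 40 of them in 3 or 4 other lists (52.6%, 40.8 to 64.2) and 7 private (9.21%, 3.78 to 18.1). EP300, a histone acetyltransferase gene, had 6 peaks that were all met by HCT116, HT29 and COLO320DM. The 3 peaks of the histone methyltransferase gene SETD2 and the 3 of the chromatin remodeller gene SRCAP were shared with the same lines. MKI67, the gene of the proliferation marker Ki-67, had 14 COLO205 peaks, of which 9 were in 3 other lists and none was private.

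NCOR1, a nuclear receptor co-repressor gene, had the strongest peak of this group, at chr17:16029398-16029539. It had 41 reads in COLO205, 6 in HCT116, 26 in HT29 and 15 in COLO320DM, and folds of 15.8, 6.74, 4.66 and 4.46. NSD1, another histone methyltransferase gene, had 26 reads at its strongest peak in COLO205, 28 in HCT116, 24 in HT29 and 29 in COLO320DM, with folds between 10.0 and 15.8. COLO205 was highest at NCOR1 in both values, and at NSD1 in fold only.

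Genes that ERK signalling switches on, a pathway driven by mutant BRAF in COLO205 and HT29, had 13 peaks in 10 of 18 genes. Of the 13, 1 was private (7.69%, 0.195 to 36.0), and 12 were shared with HCT116, 5 with HT29 and 3 with COLO320DM. Over all COLO205 peaks, 33.8% were private, 39.2% met HCT116, 48.6% met HT29 and 30.3% met COLO320DM. The 13 peaks were few, and deeper than the whole list, with a median of 18 reads against 8. DUSP4, a phosphatase that turns ERK off, had a peak at chr8:29194259-29194458 with 41 reads in COLO205 and 30 in HCT116, and SPRY4 and PHLDA1 had 2 peaks each, all shared with HCT116 alone. HT29, which also carries a mutant BRAF, had no peak in these 3 genes. It did meet the COLO205 peaks of SPRED1, AREG, HBEGF and IER3 and the stronger peak of SPRED2. The part of BRAF status in these counts was not tested.

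SPRED1, an inhibitor of RAS signalling, was shared with HCT116 and HT29 at 17, 12 and 26 reads, and SPRED2 had a peak met by all 3 long lists, with 27 reads in COLO205, 38, 44 and 39 in the others. The growth factor genes AREG and HBEGF, which feed the EGF receptor, each had 1 peak shared with HCT116 and HT29. For AREG the reads were 25 in COLO205, 27 in HCT116 and 22 in HT29, and for HBEGF 18, 9 and 14. IER3, an early response gene, had 37 reads in COLO205, 59 in HCT116 and 20 in HT29.

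The private peak of this group was in FOSL1, a transcription factor of the AP-1 family, at chr11:65660599-65660703, with 6 reads and a fold of 5.43. HCT116 also had a peak in FOSL1, at another place. COLO320DM had a peak in 3 of the 18 genes, HT29 in 7, COLO205 in 10 and HCT116 in 13.

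In the driver genes of colorectal cancer, COLO205 had 35 peaks in 16 of 29 genes, 9 of them private (25.7%, 12.5 to 43.3) and 10 in 3 or 4 other lists. No COLO205 peak was called in BRAF itself, nor in APC, NRAS, SMAD4 or CTNNB1, and of these APC alone had a peak elsewhere, in HT29. Among the genes of Wnt signalling, ZNRF3, a ubiquitin ligase that removes Wnt receptors, had 4 peaks within a few kb. The strongest, at chr22:29446585-29446873, had 30 reads in COLO205, 19 in HCT116 and 44 in COLO320DM. AXIN1, a scaffold of the complex that destroys beta-catenin, had 16 reads in COLO205, 16 in HCT116 and 33 in COLO320DM.

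FBXW7, a ubiquitin ligase subunit, had 2 peaks, both met by the 3 long lists, the stronger with 23 reads in COLO205, 34 in HCT116, 27 in HT29 and 34 in COLO320DM. FAT1, a large cadherin, had 6 peaks, 1 of them private, and IGF1R, a growth factor receptor, had 4 with 1 private. At the strongest IGF1R peak the reads were 29 in COLO205, 11 in HCT116 and 24 in COLO320DM.

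Of the driver genes, 2 had private COLO205 peaks only. ERBB2, a receptor kinase, had a peak at chr17:37884627-37884717 near its 3′ end, with 13 reads on 3 input fragments and a fold of 5.27, and it was the only one of the 133 genes with a peak in COLO205 and in no other list. TCF7L2, the DNA-binding partner of beta-catenin, had 1 peak of 6 reads at chr10:114903683-114903758, and HT29 had a peak elsewhere in the gene. Both were narrow, at 91 and 76 nt.

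Intestinal transcription factors had 18 COLO205 peaks in 8 of 13 genes, 6 of them private (33.3%, 13.3 to 59.0) and 2 in 3 or 4 lists (11.1%, 1.38 to 34.7). Both intervals contain the shares of all COLO205 peaks, 33.8% and 19.2%. KLF5, a factor of crypt cells on chromosome 13, where 58.0% of all COLO205 peaks were private, had 4 COLO205 peaks, of which 3 were private. These 3 had 31, 29 and 31 reads on 11, 16 and 14 input fragments with folds of 4.52, 3.05 and 3.67, and the fourth, with 30 reads, was shared with HCT116. All 4 KLF5 folds were below the list's median of 5.73.

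SOX9, a factor of intestinal stem cells, had the strongest peaks of the group. At chr17:70119982-70120552 it had 66 reads in COLO205, 44 in HCT116 and 32 in HT29, with folds of 9.08, 3.54 and 2.61. ELF3, an epithelial factor, had 3 peaks, all shared with HCT116, and at its strongest 43 reads in COLO205, 27 in HCT116 and 32 in HT29.

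HNF4A, which sets enterocyte gene expression, had 3 peaks, 2 of them private near its 3′ end with 12 and 15 reads, and the third shared with HT29. FOXA2 had 1 peak, with 27 reads in COLO205 and 27 in HT29 but folds of 10.5 and 4.32. GATA6 had 1 peak, with 12 reads in COLO205 and 13 in HCT116. COLO320DM had peaks in 3 of the 13 genes, against 6 in HCT116 and 8 in HT29.

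Adhesion genes had 23 COLO205 peaks in 7 of 13 genes, 3 of them private. ITGA6, an integrin subunit that binds laminin, had 45 reads at its strongest peak in COLO205, 11 in HCT116 and 26 in HT29. DSP, a plaque protein of desmosomes, had 6 peaks, 4 of them met by HCT116, HT29 and COLO320DM, and the widest of these, at 927 nt, had 34 reads in COLO205, 46, 20 and 24 in the others. CDH1, which encodes E-cadherin, had 38 reads in COLO205, 20 in HCT116 and 31 in HT29, and no peak in COLO320DM.

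PLEC, which links the cytoskeleton to junctions, had 8 peaks, all shared with HCT116 and COLO320DM and 2 of them also with HT29. EPCAM, a surface marker of epithelium, had 1 peak with 25 reads in COLO205 and 28 in HT29 and none in HCT116 or COLO320DM. AHNAK, a very large scaffold protein, had 3 peaks, all shared with HCT116, the strongest with 27 reads in COLO205 and a fold of 12.7, against 46 reads and 3.70 in HCT116.

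Immediate early genes, which cells transcribe within minutes of a stimulus, had 18 peaks in 10 of 17 genes, with 1 private. JUN, an AP-1 subunit, had 1 COLO205 peak of 603 nt at chr1:59247335-59247937, with 42 reads in COLO205, 56 in HCT116, 56 in HT29 and 39 in COLO320DM. ZFP36L2, for a protein that speeds mRNA decay, had 39 reads at its strongest peak in COLO205, 35 in HCT116, 49 in HT29 and 27 in COLO320DM. At EGR1 the reads were 22 in COLO205, 79 in HCT116 and 51 in HT29, and the folds were 14.8, 3.79 and 6.09. Of the lines with that peak, COLO205 was thus lowest in reads and highest in fold.

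JUNB had 29 reads in COLO205, 64 in HCT116, 37 in HT29 and 25 in COLO320DM. JUND had 3 peaks and IER2 had 2, all shared with HCT116 and none with HT29. The private peak of the group was in IRS2, an adaptor of the insulin receptor on chromosome 13, with 14 reads and a fold of 5.16, beside 3 shared peaks.

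The long non-coding RNAs had 12 COLO205 peaks in 4 of 7 genes, 1 private. MALAT1 had 2 peaks with 95 and 81 reads and folds of 3.01 and 1.67, on 56 and 87 input fragments. NEAT1 had 3 peaks of 25 to 30 reads, 1 of them private and none shared with HT29. PVT1 had 5, of which the strongest had 33 reads in COLO205, 29 in HCT116, 40 in HT29 and 143 in COLO320DM, with folds of 16.2, 13.4, 9.26 and 2.17. The COLO320DM value is the highest of that list on chromosomes 1 to 22 and lies beside its apparent upper limit of 146 reads, so its fold is not compared with the others. CCAT1, a colon cancer transcript, had 2 peaks, both shared with HCT116 and HT29 and not with COLO320DM.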

How the data were processed

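The 5 IP libraries had peak lists of the authors in narrowPeak form. Cutadapt, FastQC, BWA, MACS2 and build hg19 are named in the submitters' processing notes, and versions, settings and the control library are not given in the sources used here. Per the file layout, the deposited columns were positions, a score of 10 times the −log10 q-value, the fold over background (a ratio), and −log10 p and q. Peaks were called for each line separately. Coordinates are given 1-based.

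Under the caller's model, fold is (reads + 1)/(background + 1) and p is a Poisson tail, and a whole number of reads that met both within 0.001 of −log10 p was found for 100% of the COLO205 peaks (81 had several, and the best was kept). The background moved in steps of 0.552 reads, which were counted as 1 input fragment. The highest reads of the full COLO205 list, 150, equal 2 reads for each position of a 75 nt fragment, so the highest values may be capped. Recovery and overlap were tested on simulated data and against bedtools 2.31.1. Intervals were made with scipy 1.17.1 in Python 3.11.15, and figures with matplotlib 3.10.9.

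No hg19 annotation was given. Spans of genes and centromeric gaps were written from general knowledge, and a gene was kept only if its length was within 10% of the RefSeq length on GRCh38.p14, which left 24 of the 157 listed genes and 4 of 24 others unused. Members and lists were chosen with earlier results of these data known. Peaks named in the text are the 10 private ones with the highest −log10 p, the 5 with the highest fold and the 3 widest, the 5 highest of each value in 3 or 4 lists, the 3 highest per single partner, and per gene list the 6 genes with the highest −log10 p and those with private peaks only. The 5 densest windows of private and of widely shared peaks are also named. Genes outside this rule were chosen after their values were seen. Some genes of the lists are counted in the totals but not reported here by name, and the marker check leaves them out.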

Additional observations from a re-analysis of the deposited data

Results flagged for a closer look

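Peaks outside chromosomes 1 to 22 entered none of the comparisons, and those of the COLO205 list are given here as a description. The list had 551 peaks on X and Y together, of which 293 were private (53.2%, 48.9 to 57.4), with a median of 19 reads. On the mitochondrial genome it had 7 peaks with a median of 143 reads and a median fold of 2.07. Another 109 peaks lay on unplaced or random contigs, 45 of them private, with a median of 21 reads. The alternative haplotypes held 47 peaks, 11 of them private, with a median of 8 reads.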

How the results depend on the processing

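The private share of 33.8% and the share in 3 or 4 other lists of 19.2% moved with the definition of overlap. They were 52.2% and 10.7% with a reciprocal overlap of 50%, 41.2% and 14.9% with summits within 100 nt, and 22.9% and 27.8% with peaks within 1 kb. With a −log10 q of at least 5 they were 34.8% and 17.4% when every list was cut so, and 24.7% and 28.1% when COLO205 alone was. A fold of at least 4 in every list gave 37.1% and 15.2%, and the 852 strongest peaks of each list gave 36.3% and 15.8%. Leaving out a list gave 39.4% and 0.377% without HCT116, 49.98% and 0.312% without HT29, and 38.3% and 3.23% without COLO320DM, and without HCT15 the share in 3 others was 16.1%, where fewer lists could be met by construction. The private share was 34.9% with X and Y added and 32.8% without chromosome 13, an alternative chosen after seeing the data. Private peaks were narrower than shared ones by a median difference of -53 nt and had -4 reads. These were -59 nt and -6 reads at −log10 q of at least 5, and -42 nt and -5 reads with summits within 100 nt. A pseudocount of 0 gave -3 reads but could be fitted to only 0.0862% of the peaks. Leaving out peaks within 5 Mb of a centromeric gap, also chosen after seeing the data, changed none of these values beyond its interval. No paired analysis was possible because each line had 1 library. The private class had a median of 6 reads, and whether the shallower libraries could have shown these regions was not tested.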
